A study of Danio rerio with 16 samples.

Results

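The sex steroid receptors of zebrafish (Danio rerio) described here were the nuclear estrogen receptor genes esr1 (ENSDARG00000004111), esr2a (ENSDARG00000016454) and esr2b (ENSDARG00000034181). They were taken by gene identifier and make up 3 of the 31953 genes in the count table. All 3 passed the filter on low counts, which left 21683 genes for testing. The table pairs no symbols with its identifiers, and the name table used for the other genes lists them as ESR1 and ESR2, so the split of ESR2 into esr2a and esr2b rests on the identifiers by which they were chosen.

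Each library came from polyadenylated RNA of pooled gonads of a CRISPR-Cas9 line with a mutation in the microRNA gene miR-214, made with 2 guide RNAs, bred past the F3 generation and crossed to the germ-cell reporter Tg(vasa:eGFP). The labels give the strain as mz 06de, tg(vasa:eGFP) and the breed as TUE, while the growth protocol names mixed AB and TU fish for cases not stated otherwise. In the maternal cross a homozygous mother was mated with a heterozygous father, and in the paternal cross a heterozygous mother was mated with a homozygous father. Offspring homozygous for the mutation (KO) and heterozygous offspring (HET) were pooled separately, which gave 4 groups of 4 biological replicates. Fish of all 4 groups carried at least 1 mutant copy, and no wild-type group was analysed here. A library pooled 7 gonads in maternal HET, 8 or 9 in both KO groups and 9 in paternal HET. The titles give the age as 31 days post fertilization and the age label as 27 days, and the sex of the pooled gonads is not given. The study's title links miR-214 to gsdf, a growth factor gene of somatic gonad cells, and to whether a gonad becomes a testis or an ovary.

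A nuclear steroid receptor is held in the cytoplasm or nucleus by heat shock protein chaperones until its hormone binds, then pairs with a second receptor, settles on response elements in DNA and recruits coactivators or corepressors. The estrogen receptors answer to estradiol, which aromatase makes from androgens in the ovary. Esr1 is best known from the liver, where it drives yolk protein genes. The esr2 genes are duplicates from the genome duplication of teleost fish, and loss of both has been described to disturb the ovary of zebrafish.

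The libraries held 19881375 to 30128055 counts, and those of paternal HET were the deepest, at 26368367 or more. Along the first principal component (37.1% of variance), the libraries ran from paternal HET replicate 3 at the low end to maternal KO replicate 4 at the high end. The row named MIR214, the gene targeted in this line, had 0 to 9 counts per library, near the floor of 3 counts used here. Its counts summed to 19 in maternal HET and 5 in maternal KO, but to 2 in paternal HET and 19 in paternal KO, so in the paternal cross they went against the labels. The extent of the deletion is not given in the sources used here and a polyadenylated library does not measure the mature microRNA, so this row is a weak check. The groups are therefore called by their labels throughout, and each direction drawn from the paternal cross holds for libraries as labelled. The oocyte and germ-cell markers stood at summed levels of 4911 to 7965 and 3214 to 3918 CPM (counts per 1000000 counts of the scaled library total). Markers of the labelled tissue were thus present, although the oocyte histone gene h1m was listed at 0.

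esr1 was the receptor with the fewest reads, at 34 to 83 counts per library. With library totals scaled by the trimmed mean of M values (TMM), it read 1.59, 2.00, 2.13 and 1.99 CPM in maternal HET replicates 1 to 4, and 2.81, 2.03, 1.90 and 2.48 in maternal KO. The paternal HET libraries gave 1.88, 1.95, 1.75 and 2.51 CPM and the paternal KO libraries 3.17, 2.33, 2.29 and 3.13. Groups overlapped in both crosses, and paternal KO replicates 1 and 4 were the highest of all. Means were 1.93 ± 0.234 and 2.31 ± 0.419 CPM in maternal HET and KO, and 2.02 ± 0.336 and 2.73 ± 0.484 in paternal HET and KO (SD, n = 4 each). In ascending order these were maternal HET, paternal HET, maternal KO and paternal KO. The first and last pairs of neighbours did not pass (edgeR's quasi-likelihood test, adjusted p = 0.838 and 0.572), and the middle pair was not a comparison of the design but overlapped.

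esr2a had 442 to 1042 counts per library. Maternal HET replicates 1 to 4 gave 20.7, 28.7, 30.6 and 22.3 CPM, and maternal KO gave 33.9, 30.8, 30.7 and 37.4. In the paternal cross HET gave 24.9, 21.1, 21.8 and 20.3 CPM and KO gave 32.2, 27.8, 27.4 and 39.3. Within each cross every library labelled KO was above every one labelled HET, but in the maternal cross the lowest KO library cleared the highest HET library only narrowly. The means were 25.6 ± 4.81 and 33.2 ± 3.16 CPM in maternal HET and KO, and 22.0 ± 2.02 and 31.7 ± 5.57 in paternal HET and KO (SD, n = 4 each). Its order therefore put the HET groups below the KO groups, as paternal HET, maternal HET, paternal KO and maternal KO. The HET neighbours did not differ by the test (edgeR, adjusted p = 0.308), nor did the KO neighbours (adjusted p = 0.859), and maternal HET overlapped paternal KO.

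esr2b, at 140 to 519 counts per library, varied most. Its CPM was 7.30, 9.44, 17.7 and 6.89 in maternal HET replicates 1 to 4, and 15.1, 8.00, 7.70 and 11.3 in maternal KO. Paternal HET gave 8.98, 5.24, 6.01 and 6.62, and paternal KO gave 14.1, 10.6, 12.2 and 19.6. One library, maternal HET replicate 3, stood well above its group and above every maternal KO library, and the paternal groups did not overlap. Means were 10.3 ± 5.01 and 10.5 ± 3.47 CPM in maternal HET and KO, and 6.71 ± 1.61 and 14.1 ± 3.91 in paternal HET and KO (SD, n = 4 each). Within a group its coefficient of variation was 24.0% to 48.6%, against 12.1% to 18.2% for esr1 and 9.19% to 18.8% for esr2a. From lowest to highest the order was paternal HET, maternal HET, maternal KO and paternal KO, and neighbours did not differ by the test (edgeR, adjusted p = 0.193, 0.993 and 0.522).

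**Figure D1:**
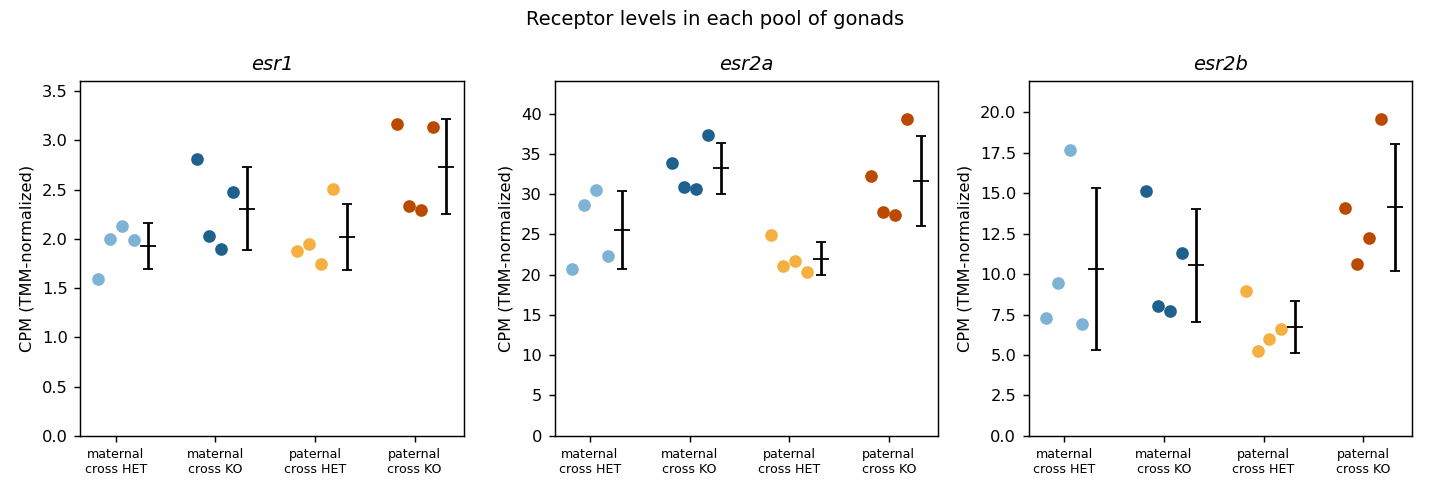
Level of each receptor in CPM (vertical axis, from 0) in each of the 16 libraries, by group; points are libraries, and the bar beside them is the mean ± SD (n = 4). For esr2a and esr2b the libraries labelled paternal KO all lie above those labelled paternal HET, and maternal HET replicate 3 stands apart for esr2b at 17.7 CPM.

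The first question of the design was whether homozygous offspring of a homozygous mother differed from heterozygous offspring of the same cross, and no receptor did so beyond the test's threshold. esr2a was 1.30-fold higher in maternal KO than in maternal HET, a log2 difference of 0.38 (SE 0.13) with an unadjusted p of 0.0122 and an adjusted p of 0.362 (edgeR, Benjamini-Hochberg over all genes tested). It was the only receptor whose KO libraries all lay above its HET libraries, a pattern seen in 2.25% of all genes. On the log2 scale esr1 differed by 0.26 (SE 0.19, approximate 95% interval -0.12 to 0.63) and esr2b by 0.03 (SE 0.29, interval -0.55 to 0.60). The interval of esr2a, not adjusted for the number of genes tested, was 0.11 to 0.64. Of the 3 receptors, 0 were called by edgeR, 1 had an unadjusted p under 0.05, and 0 were called by DESeq2, where edgeR called 0.198% of all genes.

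In the paternal cross esr2a and esr2b were higher in the libraries labelled KO, and esr1 did not pass. Homozygous offspring of a homozygous father were compared there with heterozygous offspring of that cross. esr2b had the largest difference of the receptors, 2.11-fold, with a log2 difference of 1.07 (SE 0.29, interval 0.50 to 1.65) and an adjusted p of 0.0205 in edgeR. esr2a was 1.44-fold higher (log2 0.53, SE 0.13, interval 0.26 to 0.79, edgeR adjusted p = 0.0160). esr1 differed in the same direction by 1.35-fold (log2 0.43, SE 0.19, interval 0.07 to 0.80), with an unadjusted p of 0.0320 and an adjusted p of 0.0939 in edgeR. In bulk RNA of whole gonads, a change in the number of cells that express a receptor and a change in RNA per cell cannot be told apart. Genotype also went with depth in this cross, at 26368367 counts or more in HET and 24317809 or fewer in KO. In the maternal cross genotype went with pool size, 7 gonads in HET and 8 or 9 in KO. The part of depth or pool size in the receptor differences was not tested.

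These calls have to be read against a wide background. In this comparison edgeR called 23.2% of all genes, and 14.1% were called and higher in KO, against 2 of the 3 receptors. All 4 libraries labelled KO lay above all 4 labelled HET for 15.9% of genes, and for 2 of the receptors. TMM gave 60.6% of the called genes as higher in KO, and upper-quartile scaling gave 76.5%. The share was 54.9% with DESeq2 size factors and 51.5% with the DESeq2 test. The receptor calls held under the other scalings and also depended on single libraries. Without paternal HET replicate 3 neither passed in edgeR (adjusted p = 0.0523 for esr2a and 0.0649 for esr2b), and edgeR then called 5.85% of all genes. Without paternal KO replicate 4 they did not pass either (adjusted p = 0.0675 and 0.0816), with 4.69% of genes called, and esr2b also missed without paternal HET replicate 2 (adjusted p = 0.0543). The size of the differences moved less, from 0.40 to 0.59 for esr2a, 0.87 to 1.24 for esr2b and 0.35 to 0.55 for esr1 on the log2 scale over the 8 fits that left out 1 paternal library.

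**Figure D2:**
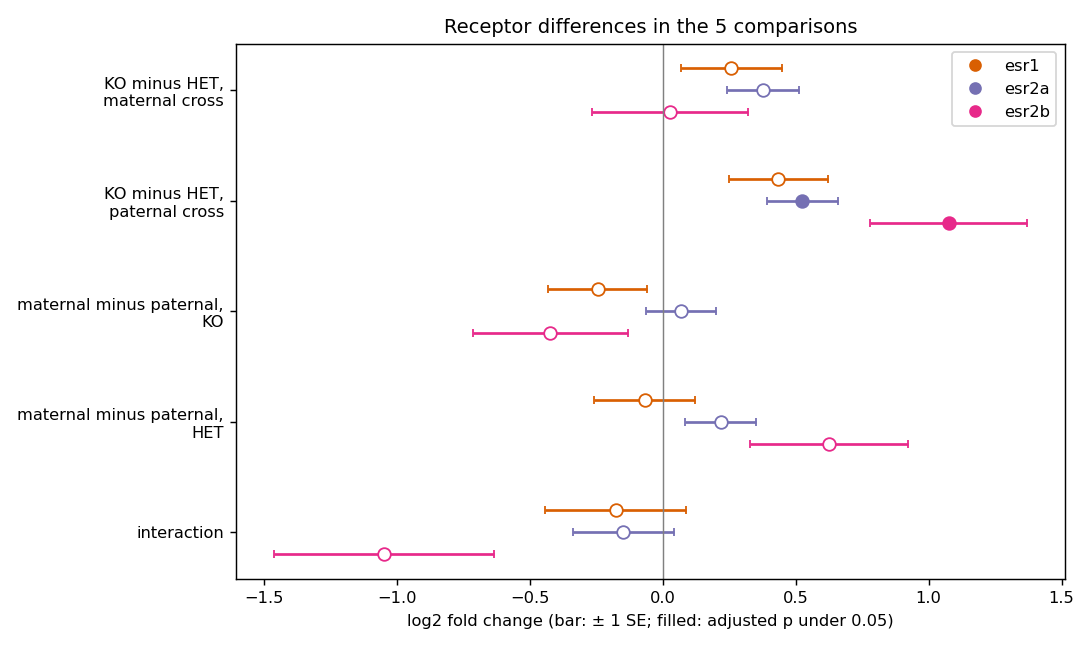
Log2 fold change of each receptor (horizontal axis) in the 5 comparisons (vertical axis); bars are ± 1 SE from the edgeR fit and filled points have an adjusted p under 0.05. The filled points are esr2a and esr2b in KO minus HET of the paternal cross, at 0.53 and 1.07.

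**Figure D3:**
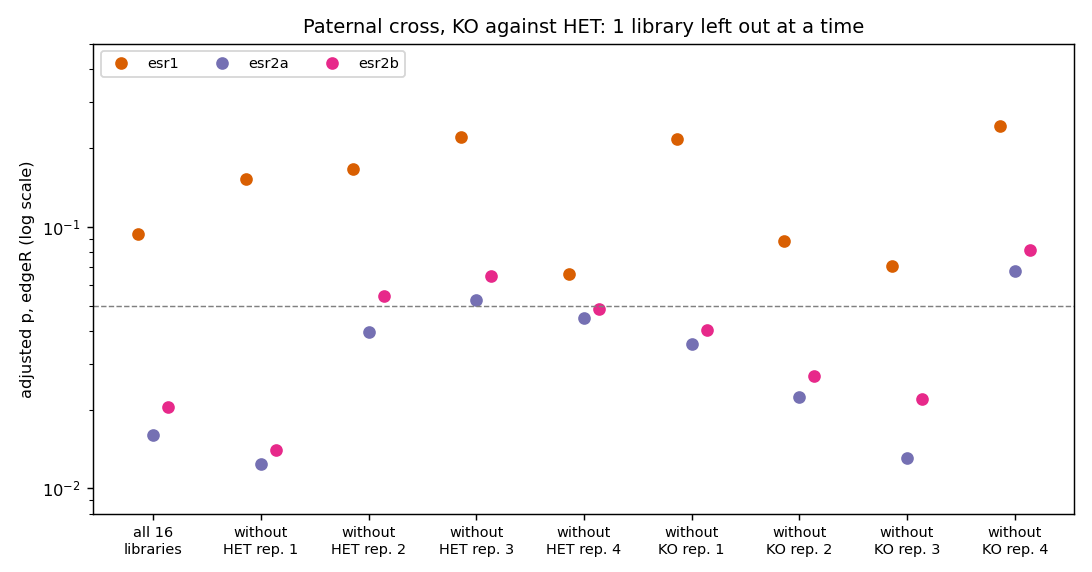
Adjusted p of each receptor (vertical axis, log scale) for KO against HET in the paternal cross with all 16 libraries and with each paternal library left out in turn; the dashed line is 0.05. esr2a crosses the line without HET replicate 3 or KO replicate 4, esr2b also without HET replicate 2, and esr1 lies above it in every fit shown.

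Comparing the crosses at the same genotype sets offspring of different parents side by side. Which parent was homozygous therefore cannot be told apart from other differences between the families, in these comparisons or in the interaction. Among HET libraries the cross also went with pool size (7 gonads in maternal and 9 in paternal HET) and with depth. Among KO libraries the maternal minus paternal log2 difference was -0.24 for esr1 (SE 0.19, edgeR adjusted p = 0.572) and -0.42 for esr2b (SE 0.29, adjusted p = 0.522). esr2a gave 0.07 (SE 0.13, interval -0.19 to 0.33, adjusted p = 0.859). None passed: edgeR called 0 receptors and 1.59% of all genes, 0 receptors had an unadjusted p under 0.05, and DESeq2 called 0. Among HET libraries the maternal minus paternal log2 differences were 0.22 for esr2a (SE 0.13), 0.62 for esr2b (SE 0.30) and -0.07 for esr1 (SE 0.19), with adjusted p-values of 0.308, 0.193 and 0.838 in edgeR. Without maternal HET replicate 3 the value was 0.24 for esr2b (edgeR adjusted p = 0.701) and 0.12 for esr2a (0.717). Again 0 receptors were called by edgeR, against 3.92% of all genes, 1 (esr2b) had an unadjusted p under 0.05, and DESeq2 called 0.

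The interaction, the KO minus HET difference of the maternal cross less that of the paternal cross, tests whether the crosses differed in their response. It was -1.05 for esr2b (SE 0.41, interval -1.86 to -0.24, edgeR adjusted p = 0.213) on the log2 scale, and -0.66 without maternal HET replicate 3 (adjusted p = 0.453). esr2a gave -0.15 (SE 0.19, interval -0.52 to 0.22, adjusted p = 0.692), or -0.056 without that library, and esr1 gave -0.18 (SE 0.27, interval -0.70 to 0.34, adjusted p = 0.743). By edgeR 0 receptors and 0.189% of all genes were called, 1 receptor (esr2b) had an unadjusted p under 0.05, and DESeq2 called 0. A difference between the crosses is therefore not shown for any receptor, although 2 passed in the paternal and 0 in the maternal cross. The comparisons share libraries: paternal HET, for example, enters both the paternal KO minus HET difference and the HET comparison of the crosses.

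Within a library the receptors can be set against each other without any scaling, since a ratio of counts does not use the library total. There were 0.248 to 0.361 counts of esr2b per count of esr2a in paternal HET and 0.382 to 0.498 in paternal KO, with no overlap between these groups. In maternal HET the ratio was 0.309 to 0.578 and in maternal KO 0.251 to 0.447, and these overlapped. esr1 per count of esr2b was 0.209 to 0.379 in paternal HET and 0.160 to 0.225 in paternal KO, and 0.121 to 0.289 and 0.186 to 0.254 in maternal HET and KO, with overlap in both crosses. esr1 per count of esr2a also overlapped in both and ran from 0.0619 to 0.124 over all libraries. These ratios carry no test, and as the transcripts' lengths were not used they show shifts between libraries and not which receptor was more abundant. The share of all gene pairs whose ratio separates the paternal groups was not computed. Of single genes, 15.9% had all 4 libraries labelled paternal KO above all 4 labelled paternal HET in CPM.

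Replicates of one group also differed together. After the group mean was taken off each library's log2 CPM, the deviations of esr2a and esr2b over the 16 libraries had a Pearson r of 0.82 (permutation within groups, two-sided, p = 0.00069, 0.00207 after Benjamini-Hochberg adjustment over 3 receptor pairs) and a Spearman rho of 0.80 (adjusted permutation p = 0.00549). Leaving out the 2 libraries farthest from the median of esr2a gave an r of 0.72. esr1 and esr2b gave an r of 0.62 and a rho of 0.71 (adjusted permutation p = 0.0291 and 0.0116), with an r of 0.62 without the 2 libraries farthest on esr1. For esr1 and esr2a r was 0.54 and rho 0.56 (adjusted permutation p = 0.0470 and 0.0448), and r was 0.74 without the 2 farthest. With group means left in, r over the 16 libraries was 0.8072 for esr2a and esr2b. The 0.95 quantile of r to all genes tested was higher, 0.8288 for esr2a and 0.8298 for esr2b. For esr1 and esr2a r was 0.6481, below the quantile of esr1 (0.6575). For esr1 and esr2b it was 0.7065, above the quantile of esr1 but below that of esr2b. The permutation tests do not set the pairs against other genes, so a link particular to the receptors is not shown. The points share their libraries, and the part of depth and tissue composition in these correlations was not tested.

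The genes whose log2 CPM followed a receptor most closely over the 16 libraries were picked by Pearson's r alone. For esr2b they were sox12 (ENSDARG00000025847, r = 0.97), a SoxC transcription factor gene, one of the genes named CYP11A1 (ENSDARG00000092696, r = 0.97), whose product makes pregnenolone from cholesterol, and LCAT (ENSDARG00000099424, r = 0.97), a cholesterol-esterifying enzyme. For esr2a they were CCR8 (ENSDARG00000086616, r = 0.96), a chemokine receptor gene, SNTB2 (ENSDARG00000051763, r = 0.96), a syntrophin gene, and ATP11A (ENSDARG00000008413, r = 0.96), a phospholipid flippase gene. Among the closest to esr1 were sumo2b (ENSDARG00000102741, r = 0.87), a gene of the SUMO modifier, and si:dkey-3h2.4 (ENSDARG00000098444, r = 0.86). High r was common in these libraries: the top 5% of all genes tested had an r above 0.657 for esr1 and 0.83 for both esr2 genes, and groups that differ in level raise it.

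Several cell-type marker lists also differed in the paternal cross, where edgeR called 23.2% of all genes. Of the markers listed as testis somatic (Sertoli and Leydig cells) 4 of 7 tested were called and higher in libraries labelled KO. Among them were amh (log2 2.31, SE 0.62, edgeR adjusted p = 0.0189), a hormone gene of somatic gonad cells, and gsdf (1.11, SE 0.26, adjusted p = 0.0125). Of the 7, 2 had a negative log2 difference and were not called. The summed level of the list was 143 to 232 CPM in paternal HET and 297 to 573 in paternal KO. Most of that sum was gsdf, at 120 to 195 CPM in paternal HET and 255 to 462 in paternal KO. The list's name does not by itself show testis tissue, as the sex of the pooled gonads is not given. Leukocyte markers were called and higher for 6 of 7, with a sum of 56.5 to 104 CPM in HET and 128 to 211 in KO. Connective tissue markers were called and higher for 5 of 6, with 394 to 609 CPM in HET and 639 to 1047 in KO. Ovarian somatic markers were called and higher for 2 of 7 (FST and INHBB), at 23.9 to 32.6 CPM in HET and 37.0 to 58.8 in KO. Of these 7, 6 had a positive log2 difference and 1 a negative one, at a median of 0.42, and DESeq2 called 3. Oocyte markers went the other way, with 7 of 8 called and lower in KO and sums of 6828 to 7965 CPM in HET and 5352 to 6593 in KO. Of the germ-cell markers 2 of 7 (DAZL and NANOS3) were called and lower, at 3214 to 3918 CPM in HET and 3378 to 3634 in KO. Of the adipocyte markers 1 of 4 (cfd) was called and higher. The called shares of the ovarian somatic, germ-cell and adipocyte lists, 28.6%, 28.6% and 25%, were near that of all genes. The erythrocyte, liver and skeletal muscle lists had 0 called by edgeR in this comparison, 0 at an unadjusted p under 0.05 and 0 by DESeq2. The part of tissue composition in the receptor differences was not tested.

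The same libraries were high in the summed testis somatic markers and in esr2b. The testis somatic sum was highest in maternal HET replicate 3 (448 CPM), maternal KO replicate 1 (382), paternal HET replicate 1 (232) and paternal KO replicate 4 (573), each the library with the most esr2b in its group. Of these sums gsdf alone made up 341, 291, 195 and 462 CPM, in the order given, so the sum mostly follows that gene. The match with esr2b was not particular to the testis somatic list. These libraries also led their groups in the summed gonadotropin signalling genes described below (146, 137, 99.6 and 157 CPM). They did so too for the further nuclear steroid receptors (62.4, 56.1, 52.7 and 65.4 CPM). The ovarian somatic sum was also highest in them, except in maternal KO, where replicate 4 led. The leukocyte sum put maternal HET replicate 3 at 216 CPM against 76.6 to 119 in the rest of that group. In the maternal cross edgeR called 0 of the 63 marker genes tested, and 0.198% of all genes. An unadjusted p under 0.05 was seen for 1931 of the 21683 genes tested and for 8 of the markers. DESeq2 called 209 of all genes and 2 of the markers. Of these, 6 of the 8 and both DESeq2 calls were liver markers, which had a positive log2 difference in 7 of 7 and a median of 2.55. The other 2 were oocyte markers, which had a negative log2 difference in 8 of 8 and a median of -0.14. The oocyte sum in this cross was 5725 to 7071 CPM in HET and 4911 to 6382 in KO. The liver sum was 204 CPM in maternal KO replicate 4, the library with the most esr2a in that cross, against 10.7 to 43.7 CPM in the other libraries. Without that library the maternal log2 difference of esr2a was 0.31 (edgeR adjusted p = 0.690). A similar value came without maternal HET replicate 1 (0.29, edgeR adjusted p = 0.692) or HET replicate 4 (0.32, adjusted p = 0.660). Over the 8 fits that left out 1 maternal library it ran from 0.29 to 0.47, so the lower value is not particular to that library. In the maternal cross the testis somatic sum was 173 to 448 CPM in HET and 199 to 382 in KO. The leukocyte sum there was 76.6 to 216 CPM in HET and 112 to 194 in KO.

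**Figure D4:**
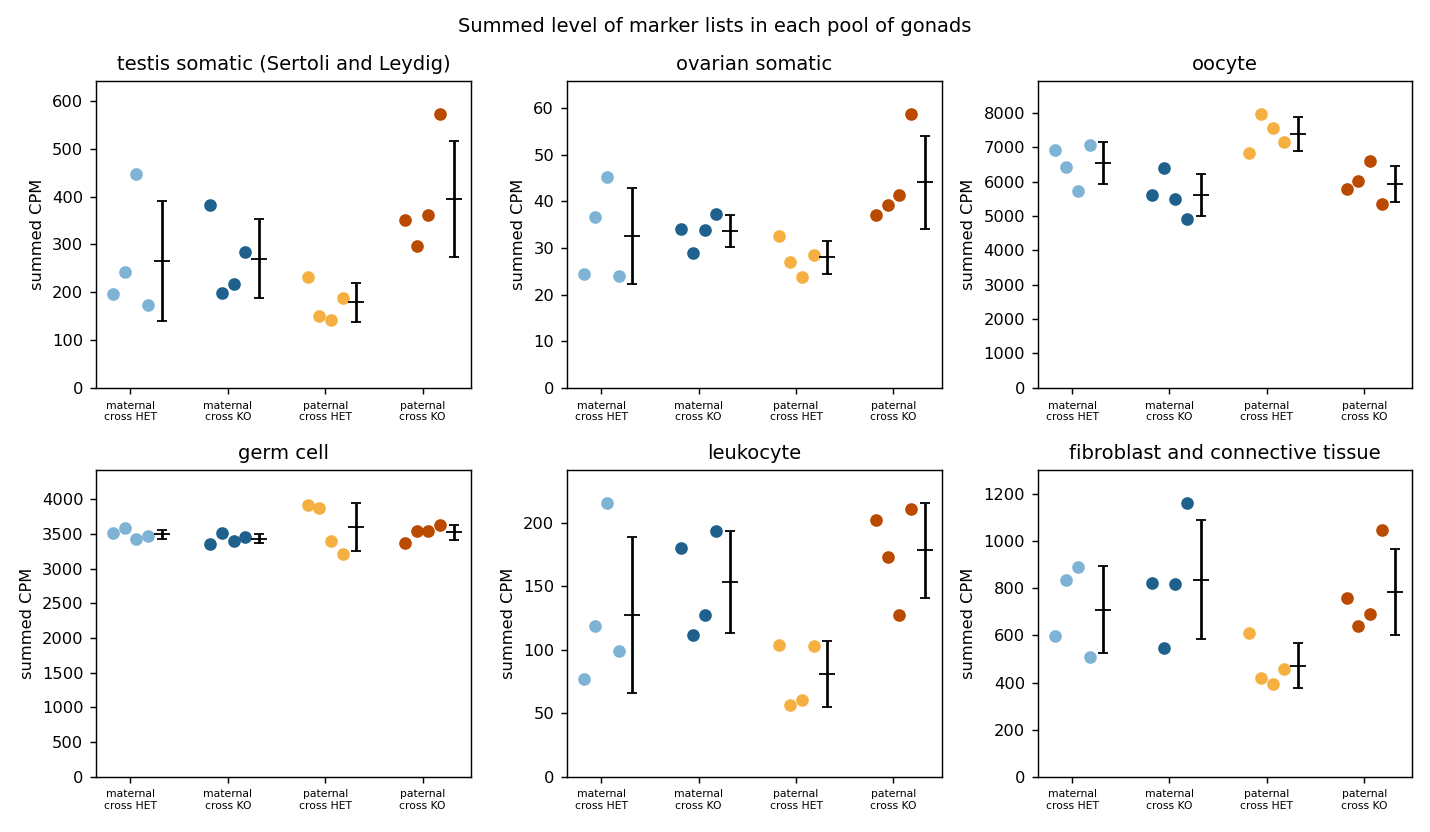
Summed CPM of the genes of 6 marker lists (vertical axis, from 0) in each library, by group; points are libraries and bars the mean ± SD (n = 4). In the paternal cross the testis somatic and leukocyte sums of libraries labelled KO lie above those labelled HET (297 to 573 against 143 to 232 CPM, and 128 to 211 against 56.5 to 104). The ovarian somatic and connective tissue sums of libraries labelled KO also lie above, while the oocyte sum lies below.

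Called genes among those that make the receptors' ligands lay in both directions. In the paternal cross 4 of 19 tested genes of sex steroid synthesis and inactivation were higher in libraries labelled KO and 2 were lower, or 31.6% called, against 23.2% of all genes. The CYP11A1 gene that followed esr2b rose from 2.07 ± 0.611 CPM in HET to 6.84 ± 2.46 in KO (log2 1.73, SE 0.44, edgeR adjusted p = 0.0160). The other gene named CYP11A1 (ENSDARG00000002347), at 131.9 to 244.8 CPM over all libraries, was lower in KO (log2 -0.45, SE 0.13, edgeR adjusted p = 0.02405). hsd3b1, a 3-beta-hydroxysteroid dehydrogenase gene, rose from 4.29 ± 2.24 to 18.1 ± 6.80 CPM (log2 2.08, SE 0.54, adjusted p = 0.0169). hsd3b2 of the same family fell from 72.8 ± 5.86 to 49.0 ± 6.89 CPM (log2 -0.57, SE 0.15, adjusted p = 0.0188; SD, n = 4 in each group). The list's median log2 difference was 0.06, against 0.02 over all genes tested.

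Among further nuclear steroid receptors the called share was near that of all genes, while no membrane steroid receptor was called. Of 8 further nuclear receptor genes listed 2 (25.0%, against 23.2% of all genes) were higher in paternal KO: NR3C1, the glucocorticoid receptor gene, at 16.3 ± 2.54 CPM in HET and 23.6 ± 2.27 in KO (log2 0.54, SE 0.14, edgeR adjusted p = 0.0170), and PGR, the nuclear progestin receptor gene, at 12.2 ± 2.88 and 18.4 ± 2.04 CPM (log2 0.60, SE 0.19, adjusted p = 0.0330; SD, n = 4). The median of these 8 was 0.11 on the log2 scale. Among 8 membrane steroid receptor genes 0 were called by edgeR, against 23.2% of all genes, at a median of 0.08. Of these 8, 2 had an unadjusted p under 0.05, and DESeq2 called 1.

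Partners of the receptors split between rises and falls. Of 18 coactivator genes 5 were higher and 2 lower in paternal KO (38.9% called, against 23.2% of all genes), with a median of 0.06. NCOA3, a p160 coactivator, stood at 18.1 ± 2.70 CPM in HET and 24.7 ± 2.46 in KO (log2 0.45, SE 0.12, edgeR adjusted p = 0.0180), and the acetyltransferase gene KAT2B at 2.13 ± 0.188 and 3.35 ± 0.465 CPM (0.65, SE 0.17, adjusted p = 0.0163). MED1, the Mediator subunit that contacts nuclear receptors, was the coactivator gene called between the crosses, at 14.9 ± 1.63 CPM in maternal HET and 5.69 ± 1.02 in paternal HET (log2 1.39, SE 0.14, edgeR adjusted p = 0.000117), and by 0.77 (SE 0.14, adjusted p = 0.0117) between the KO groups. Of 14 corepressor genes 1 was called and higher and 3 were called and lower in paternal KO, at a median of -0.17. The called share, 28.6%, was near the 23.2% of all genes. The histone deacetylase genes HDAC1 and hdac3 fell by 0.30 (SE 0.08) and 0.25 (SE 0.08) on the log2 scale, with adjusted p-values of 0.0204 and 0.0369 in edgeR. NRIP1, a ligand-dependent corepressor, had its smallest p in the maternal cross, where it did not pass (log2 0.61, SE 0.18, edgeR adjusted p = 0.241), and was called in the paternal cross (0.51, SE 0.18, adjusted p = 0.0461).

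Chaperone and immunophilin genes gave 2 higher and 2 lower of 14 in paternal KO (28.6% called, against 23.2% of all genes), with a median of -0.15. A gene named HSP90AA1 (ENSDARG00000024746) rose from 79.6 ± 15.7 to 130 ± 17.7 CPM (log2 0.70, SE 0.16, edgeR adjusted p = 0.0118; SD, n = 4). FKBP5, an immunophilin of steroid receptor complexes, stood at 43.6 ± 16.3 CPM in maternal HET, 94.8 ± 25.3 in maternal KO, 50.9 ± 12.2 in paternal HET and 28.2 ± 5.13 in paternal KO. With all 16 libraries and TMM, edgeR called its interaction (log2 1.97, SE 0.34, adjusted p = 0.0314) and that of no other gene of the 8 pathway lists. The number of list genes called was 0 with upper-quartile scaling, with the replicate block, and without maternal HET replicate 2, maternal KO replicate 1, paternal HET replicate 4 or paternal KO replicate 1, and DESeq2 called 4. The maternal and paternal KO groups differed by 1.75 (SE 0.24, adjusted p = 0.00271). hsp90aa1.1 was higher in maternal than in paternal HET, at 8.47 ± 3.46 against 3.42 ± 0.458 CPM (log2 1.31, SE 0.25, edgeR adjusted p = 0.0116). In this comparison the skeletal muscle markers had a median log2 difference of 1.17, with 4 positive and 2 negative. EdgeR called 0 of these 6 and DESeq2 3. Their sum was 123 to 1019 CPM in maternal HET and 108 to 242 in paternal HET. The part of muscle tissue in the hsp90aa1.1 difference was not tested.

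Genes known in fish to respond to estrogen gave 1 higher and 0 lower of 9 tested in paternal KO (11.1% called, against 23.2% of all genes), and that one was PGR, which the list of nuclear receptors also holds. The median of the 9 was 0.01 on the log2 scale. The list matched 15 genes, and those not tested failed the filter on low counts. It includes the yolk protein genes vtg1 to vtg7, and its cyp19a1b was matched to the same gene as cyp19a1a. The list is therefore a limited measure of estrogen response in the gonad. F13A1 was lower in maternal KO than in paternal KO (1.16 ± 0.329 against 4.07 ± 3.44 CPM, log2 -1.82, SE 0.42, edgeR adjusted p = 0.0417), and did not pass without paternal KO replicate 4 (adjusted p = 0.0878) or without maternal KO replicate 1 (0.110).

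The list named gonadotropin signalling had the largest share of called genes of the 8 lists, with 7 of 13 called and higher and 0 called and lower in paternal KO. That is 53.85% called, against 23.2% of all genes, of which 14.1% were called and higher. The list's median was 0.88 on the log2 scale. Of the called genes only FSHR (log2 0.88, SE 0.25, edgeR adjusted p = 0.0213) is a gonadotropin receptor gene. The others are inhibin or activin subunit, growth factor and BMP receptor genes. The list's name does not by itself show a change in gonadotropin signalling. igf3, a gonadal insulin-like growth factor gene of fish, rose from 5.49 ± 0.616 to 10.4 ± 2.21 CPM (log2 0.92, SE 0.22, edgeR adjusted p = 0.0123). INHBB, an activin subunit gene that the ovarian somatic list also holds, rose from 3.63 ± 1.4 to 12.1 ± 5.25 CPM (1.74, SE 0.43, adjusted p = 0.0143), and a BMPR2 gene (ENSDARG00000020057) from 2.87 ± 0.978 to 5.91 ± 1.17 CPM (1.04, SE 0.25, adjusted p = 0.0128; SD, n = 4).

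In the maternal cross edgeR called 0 of the 101 genes of the 8 lists, and 0.198% of all genes. An unadjusted p under 0.05 was seen for 11 of the 101 and for 1931 of the 21683 genes tested. DESeq2 called 1 of the list genes and 209 of all genes. In the paternal cross edgeR called 30 of the 101, and 23.2% of all genes. The count fell with that share: it was 7 without paternal HET replicate 3 (5.85% of all genes), 16 without paternal HET replicate 4 (12.4%) and 2 without paternal KO replicate 4 (4.69%). Between the crosses edgeR called 3 of the 101 among KO and 3 among HET, against 1.59% and 3.92% of all genes.

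**Figure D5:**
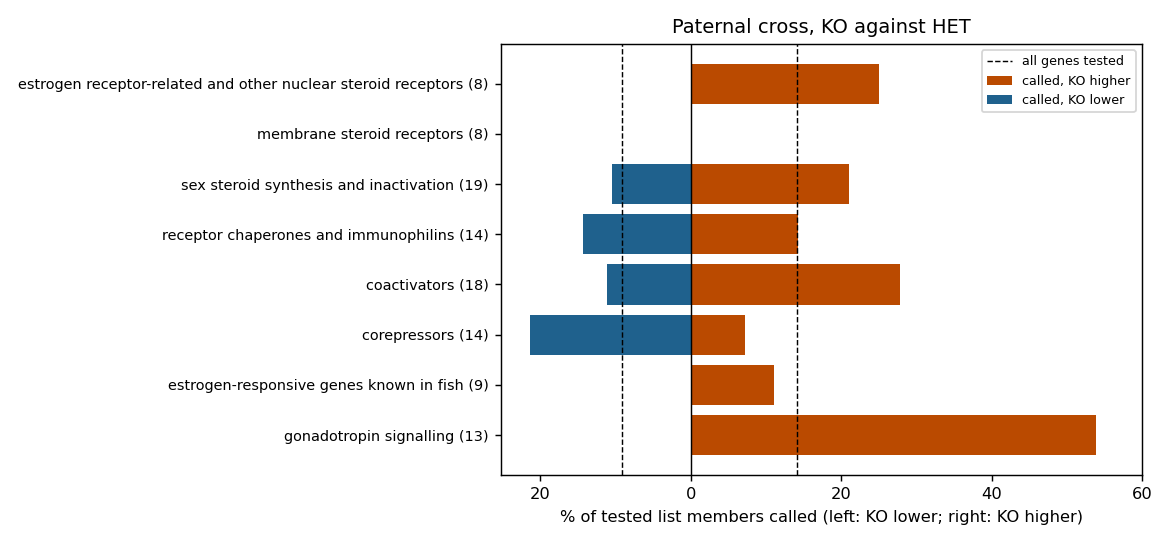
Share of the tested genes of each pathway list (number tested in parentheses) that were called in KO against HET of the paternal cross, with KO higher to the right and KO lower to the left, in percent; dashed lines are the shares over all genes tested, 14.1% higher on the right. Gonadotropin signalling has the longest bar, 7 of 13 genes, and the membrane receptors have none.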

How the data were processed

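The authors' deposited values are raw counts, whole numbers for each Ensembl gene in each library, in a single table. Per the submitters' processing notes, STAR 2.4.1d, featureCounts 1.4.6, DESeq2 and the build danRer10 were used; the annotation and strand setting are not given in the sources used here, so overlapping and antisense genes are uncertain. Per the labels' protocols, a stranded polyA kit was used and all 16 libraries shared 1 flow cell; no batch is given.

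Columns were matched by title and grouped by the parental and genotype labels. Genes were filtered with filterByExpr (minimum count 10), scaled by TMM and tested with edgeR 4.0.16 (R 4.3.3), by the quasi-likelihood test on all 16 libraries with 1 coefficient per group, Benjamini-Hochberg adjustment over 21683 genes and a threshold of 0.05. The SE is the log2 difference divided by the square root of F, and the approximate 95% interval assumes a normal distribution. The procedure was tested on simulated data. Alternatives were DESeq2 size factors, upper-quartile scaling, no filter, a replicate block, only the groups compared, DESeq2 1.42.0, and leaving out each library. Log2 CPM used a prior count of 2, and correlations 100000 permutations. Intervals do not cover error beyond the spread between these pools.

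Names came from a table that matched 26121 of 31953 identifiers. Most are capital symbols without paralog suffixes, so list symbols were matched after dropping case and suffix where needed, and paralogs of 1 symbol are not told apart. Some items chosen with these genes are not reported here. The receptors and all gene lists were chosen with earlier results of these data known. From each pathway list, the text names up to 3 genes called in any comparison, by smallest unadjusted p, and the second CYP11A1 gene and FSHR besides. Marker genes are named as called ones, and up to 3 genes with the highest r per receptor. No sequence or coordinate is printed, because no genome of the build was used here.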

Additional observations from a re-analysis of the deposited data

How the results depend on the processing

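Under the 6 settings that changed scaling, filter, block, samples fitted or tool, esr2a and esr2b kept their calls in the paternal cross (largest adjusted p 0.0369 and 0.0351) and esr1 did not pass (0.0652 to 0.144); no receptor passed elsewhere, leaving out single libraries included. Leaving out 1 library at a time, the paternal log2 differences were 0.40 to 0.59 for esr2a and 0.87 to 1.24 for esr2b. The uncalled difference of esr2b in the maternal cross then ran from -0.20 to 0.41 and that of esr1 between the HET groups from -0.13 to 0.052; the cause was not tested. The replicate numbers did not pair the samples (correlations of same-numbered libraries -0.412 to 0.301); with a replicate block the genes called were 21 in the maternal cross, 134 between KO groups, 345 between HET groups and 13 for the interaction. Fitting only the groups compared gave 4 in the maternal cross and 193 between HET groups, and could not be fitted for the interaction. DESeq2 called 209, 837, 2055 and 637 in these 4 comparisons. The interaction had 41 calls, 19 with upper-quartile scaling, where the share higher went from 31.7% to 42.1%, and 70 without a filter. With single libraries left out, calls ran from 19 to 131 (maternal), 1026 to 5980 (paternal), 109 to 273 (KO groups), 146 to 1991 (HET groups) and 14 to 181 (interaction). Counts for single lists were recomputed in the paternal cross only, over all lists together in the others, and list genes left out by library are recorded at their extremes. esr1 rests on 34 to 83 counts, which limits its precision.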
